A study of Mus musculus with 24 samples.

Results

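Of the 13998 genes in the deposited hypothalamus table, 8 are MHC class I genes, chosen by symbol alone: the heavy chain loci H2-K1, H2-K2, H2-D1, H2-Q1, H2-Q4, H2-T3 and H2-T10, and B2m. The symbol rule used no measured value, but members and lists were chosen with earlier results of these data known. All 8 passed the filter on low values, since every gene in the table has a mean of at least 6.03 normalized counts over all 24 mice. H2-K2 and H2-Q4 passed through their b6/b6 means of 63.9 and 26.9, their cast/cast means being 3.49 and 1.28. The remaining 10 of the 18 class I symbols of this rule in the GENCODE annotation, among them H2-Q2, H2-Q7, H2-T22 and H2-T23, were not analysed here. Expression was measured by SAGE-Seq, in which each transcript contributes a single tag read from its 3′ end, in the hypothalamus of 24 adult male F2 mice. The 12 b6/b6 mice carried C57BL/6J alleles across a segment of Chr 17 that contains the MHC, and the 12 cast/cast mice carried CAST/EiJ alleles there. Both groups were b6/b6 in the rest of the genome, descended from 1 founder male of the B6.CAST-17.1 congenic strain, and were killed about 48 h after a return to a choice of carbohydrate/protein and fat/protein diets. The mice were picked by intake, cast/cast from the high and b6/b6 from the low tail of carbohydrate intake, so that genotype and intake cannot be told apart in a comparison of the groups.

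MHC class I molecules consist of a heavy chain that spans the membrane and a small soluble partner, beta-2 microglobulin, encoded by B2m. The classical heavy chains H2-K1 and H2-D1 carry peptides from inside the cell to the surface for inspection by CD8 T cells, while the nonclassical H2-Q and H2-T loci have more restricted or specialised roles, and H2-K2 is annotated as a non-coding relative of H2-K1. Their promoters respond to interferon and to NLRC5, and in the brain class I transcripts are found in endothelium and microglia and in some neurons. The mouse genome carries many near copies of these genes side by side, and a short tag may therefore fail to separate them.

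The tags decide which locus a count can be credited to, and they are shown here for that reason. SAGE-Seq tags begin at a CATG, the NlaIII cutting site, and the tag nearest the 3′ end of a transcript was read from the GENCODE transcripts of the C57BL/6J reference (GRCm38) that match the deposited accessions. In the first set below, capitals mark bases that differ from the tag of H2-K1:
H2-K1: catggattgagaatgcttagaggtttt
H2-D1: catggattgagaatgcttagaggtttt
H2-K2: catggattgagaatActtagagTtttG
The 27 bases were identical in H2-K1 (Chr 17: 33996088 to 33996114, minus strand, 3′ UTR) and H2-D1 (Chr 17: 35267414 to 35267440, plus strand, 3′ UTR). The tag of H2-K2 (Chr 17: 33974693 to 33974719, minus strand, exon of a non-coding transcript) differed from it at 3 bases. A count of H2-K1 or H2-D1 is therefore uncertain as to its locus, and how the authors' software assigned a tag shared by both is not given in the sources used here.

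The tags of the other members were distinct, with at least 13 mismatches between any pair of them or to the tags above. Here capitals mark the CATG site:
H2-Q1: CATGatgtcacctgttctgtttgtgat
H2-Q4: CATGtgaaaggatgcgatgcgtgatga
H2-T3: CATGaaataaatgaatcttaagaaaag
H2-T10: CATGttaatgtagactttcgacaggaa
B2m: CATGttttcaaaaaattggaaatatcc
The tag of H2-Q1 (Chr 17: 35324889 to 35324915, plus strand, 3′ UTR) was also the last tag of an annotated H2-Q2 transcript, and H2-Q1 counts may therefore include H2-Q2. That H2-Q2 transcript had no RefSeq match, and the last tag of the RefSeq-matched H2-Q2 transcript was shared with no other gene. The tags of H2-Q4 (Chr 17: 35384300 to 35384326, plus strand), H2-T3 (Chr 17: 36185678 to 36185704, minus strand) and B2m (Chr 2: 122152779 to 122152805, plus strand) lay in the 3′ UTR and were found at no NlaIII site of another gene. The tag of H2-T10 (Chr 17: 36116135 to 36116161, minus strand) belonged to its non-coding transcript NR_046286, whereas 2 other H2-T10 transcripts ended in a tag shared with H2-T22. In all, 3 of 8 members shared their last tag with another gene, against 378 of the 12456 tested genes (3.03%) that could be matched to a RefSeq transcript. Over every NlaIII site, B2m alone, with 5 sites, shared no tag with another gene, while H2-T10 shared 9 of 11 and H2-Q1 9 of 18. CAST/EiJ sequence was not used here, so the tags of the cast/cast alleles are not known from these data. Whether a lower cast/cast count of a Chr 17 gene reflects less transcript or a tag that differs in the CAST allele was not tested. This holds for every Chr 17 gene and sum below.

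Among the 7 heavy chains analysed, H2-Q1 had more normalized counts than any other in 24 of 24 mice. A SAGE tag is counted once per transcript, and the levels of different genes can be set side by side without a correction for length. The places of H2-K1 and H2-D1 in the orders below, and the lead of H2-Q1 over them, depend, however, on how their identical tag was assigned. Whether it was assigned or dropped is not known. H2-Q1 counts may include H2-Q2. In b6/b6 mice, the order by median was B2m (1618 normalized counts), H2-Q1 (578), H2-K1 (106), H2-K2 (67.5), H2-D1 (27.4), H2-Q4 (22.6), H2-T3 (7.28) and H2-T10 (5.15). Neighbours in this order were closest for H2-D1 and H2-Q4 and for H2-T3 and H2-T10, with the first above the second in 8 of 12 mice each. In cast/cast mice, the order by median was B2m (2045), H2-Q1 (392), H2-K1 (44.2), H2-T3 (19.2), H2-D1 (19.0), H2-T10 (8.85), H2-K2 (1.42) and H2-Q4 (1.06), so that H2-K2 and H2-Q4 stood last. H2-T3 was above H2-D1 in 5 of 12 cast/cast mice and H2-K2 above H2-Q4 in 6 of 12, and neither pair differed beyond the spread between mice.

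**Figure D1:**
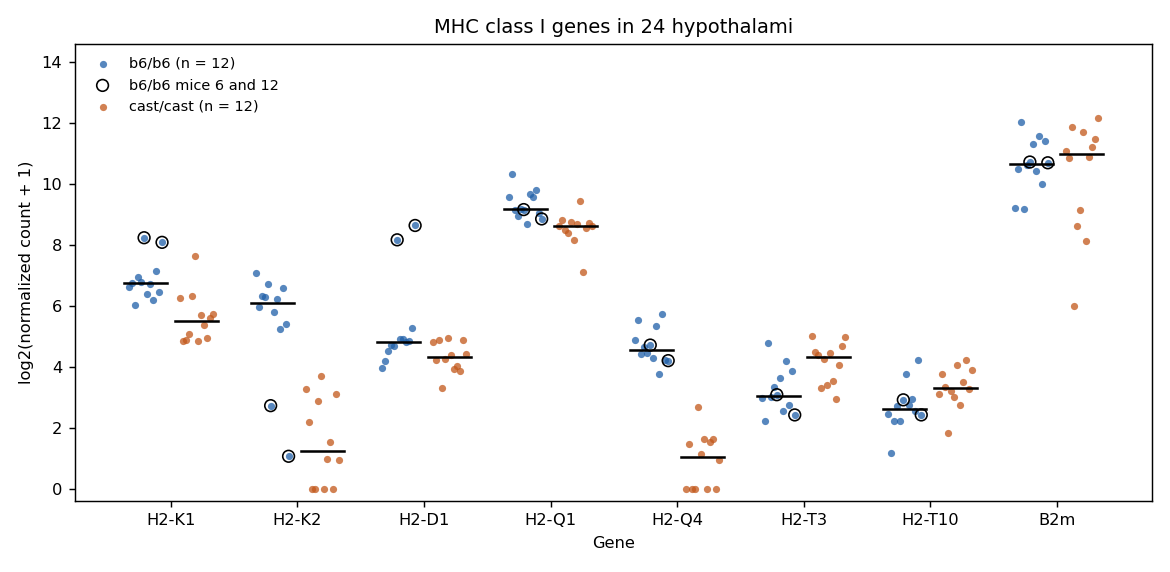
Normalized counts of the 8 MHC class I genes in each mouse, on a log2(normalized count + 1) axis, by genotype (12 mice each); horizontal lines are medians and black rings mark b6/b6 mice 6 and 12. H2-Q4 separates the genotypes completely, H2-K2 does so but for the 2 ringed mice, and the ringed mice stand far above all others for H2-D1.

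A gene was called different between genotypes when the unadjusted P from limma on log2(normalized count + 1) was at most 0.01 and the ratio of group means was at least 1.5 in the same direction, the thresholds of the study. By this rule, 5 of the 8 members were called, H2-K1, H2-K2, H2-Q1 and H2-Q4 lower and H2-T3 higher in cast/cast mice, beside 1.49% of all 13998 genes, or 1.01% lower and 0.471% higher. All 5 were among the 7 heavy chains on Chr 17, where 25.3% of the 396 genes tested between 4 and 45 Mb were called, 18.9% lower and 6.31% higher. Without b6/b6 mice 6 and 12, described below, 4 members and 0.986% of all genes were called, and without the 9 libraries least correlated with the others 4 members and 3.02%, the members being H2-K1, H2-K2, H2-Q1 and H2-Q4 in both cases. The median log2 fold change (cast/cast minus b6/b6 throughout) was -0.98 over the 7 heavy chains, -0.06 over those 396 genes and -0.02 over all genes tested. With Benjamini-Hochberg adjusted P of at most 0.05 over all genes in place of the unadjusted P, 3 members (H2-K1, H2-K2 and H2-Q4) were called, beside 0.572% of all genes. For B2m, on Chr 2, no difference was detected. The labels number the mice by study, and the median study number was 269.5 for b6/b6 and 120.5 for cast/cast. When mice were grouped into 7 blocks, split wherever consecutive study numbers were more than 20 apart, and the block was added to the limma fit, H2-K2 and H2-Q4 were still called. H2-K1 (log2 fold change -0.92, P = 0.0262), H2-Q1 (-0.64, P = 0.0132) and H2-T3 (0.30, P = 0.451) were not, and B2m was at -1.90 (P = 0.00546). Some of these blocks held mice of a single genotype, which give no contrast within their block. The lowest B2m value, 62.2, was that of the only cast/cast mouse in the block of lowest study numbers. Genotype and study number are thus partly confounded, and the fit cannot separate them fully.

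Among the 24 libraries, b6/b6 mice 6 and 12 stood apart for these genes, and values without them are given beside the results they touch. They had study numbers 42 and 27, and the lowest median Pearson correlations with the other libraries among b6/b6 mice, 0.872 and 0.836, where those of all libraries ran from 0.836 to 0.954. Genome-wide, 706 of 13998 genes (5.04%) were at least 2-fold higher and 199 (1.42%) at least 2-fold lower in both of these mice than in each of the other 22, on the log2(normalized count + 1) scale, and 672 and 191 of these genes lay off Chr 17. Of the members, H2-D1 was among them. Genes whose last tag is shared with another gene were at least 2-fold higher in these mice in 48 of 378 cases (12.7%), and other matched genes in 593 of 12078 (4.91%), and the part of tag sharing in the values of these mice was not tested.

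H2-K1, the classical K heavy chain (NM_001001892; Chr 17: 33996012 to 34000333), fell in cast/cast mice to 0.443 of its b6/b6 mean. Normalized counts in b6/b6 mice ranged from 64.5 to 301 with a median of 106, and in cast/cast mice from 27.6 to 197 with a median of 44.2. The groups overlapped, with 9 of 12 cast/cast mice below every b6/b6 mouse. Group means were 130 ± 76.1 (SD, n = 12) in b6/b6 and 57.6 ± 47.4 (SD, n = 12) in cast/cast, a log2 fold change of -1.26 (SE 0.29, limma P = 0.00021, adjusted P = 0.0398). The highest b6/b6 values, 301 and 271, were those of mice 6 and 12, and the other 10 b6/b6 mice did not exceed 142. Without these mice the log2 fold change was -0.997 (SE 0.27, limma P = 0.00101, adjusted P = 0.15), and H2-K1 was still called. The highest cast/cast value, 197, was that of cast/cast mouse 6, and the next was 78.3. Without the 9 libraries least correlated with the others, H2-K1 ranged from 64.5 to 142 in 8 b6/b6 and from 27.6 to 52.4 in 7 cast/cast mice. The log2 fold change was then -1.38 (SE 0.20, limma P = 1.25e-06, adjusted P = 0.00033).

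H2-D1, the classical D heavy chain (NM_010380; Chr 17: 35263094 to 35267497), had the largest ratio of means among the members not called, and that ratio rested on mice 6 and 12. In b6/b6 mice normalized counts ranged from 14.7 to 398 with a median of 27.4, and in cast/cast mice from 8.89 to 29.7 with a median of 19.0. The values of mice 6 and 12 were 287 and 398, whereas the other 10 b6/b6 mice lay between 14.7 and 37.9 and overlapped with the cast/cast mice. The lower of these 2 values was 7.58 times the highest value of the other 22 mice. Over all mice the means were 78.3 ± 126 (SD, n = 12) in b6/b6 and 20.1 ± 6.81 (SD, n = 12) in cast/cast, with a log2 fold change of -0.98 (SE 0.42, limma P = 0.0289, adjusted P = 0.586). Without mice 6 and 12 the b6/b6 mean was 25.5 ± 6.55 (SD, n = 10) and the log2 fold change -0.36 (SE 0.21, 95% CI -0.79 to 0.07, limma P = 0.0945), a difference not larger than the spread between mice. The count models called H2-D1 over all 24 mice, edgeR with a log2 fold change of -1.94 and DESeq2 with -1.96.

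H2-K2 (NR_004446; Chr 17: 33974659 to 33978791), the non-coding relative of H2-K1, had 18.3-fold lower counts in cast/cast mice by the ratio of means. The CAST allele of its tag was not examined. Normalized counts in b6/b6 mice ranged from 1.09 to 136 with a median of 67.5, and in cast/cast mice from 0 to 11.9 with a median of 1.42. No tag was counted in 4 of the 12 cast/cast libraries, and 42 tags in all 12 together against 800 in b6/b6. The groups overlapped through mice 6 and 12 alone, at 5.61 and 1.09 normalized counts, while the other 10 b6/b6 mice, from 36.7 upwards, lay above all 12 cast/cast mice. The log2 fold change was -3.90 (SE 0.61, limma P = 7.4e-07, adjusted P = 0.00017) over all mice and -4.62 (SE 0.45) without mice 6 and 12.

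In b6/b6 mice 6 and 12, then, the transcript with 3 differing bases was low where the 2 loci with the identical tag were high. Across the 12 b6/b6 mice the Pearson correlation of log2 values was -0.96 between H2-K2 and H2-D1 and 0.85 between H2-K1 and H2-D1, with Spearman coefficients of -0.75 and 0.39. Over the other 10 b6/b6 mice the Pearson coefficients were -0.59 and -0.06. Other genes of the segment did not all agree in these 2 mice. AA388235, a non-coding transcript that lies between H2-K2 and H2-K1, was at 88.8 and 80.5 normalized counts in these mice and at no more than 1.89 in any cast/cast mouse. H2-Q4 was at 25.2 and 17.4, above the cast/cast maximum of 5.46. Psmb9, a proteasome subunit gene, was at 36.4 in mouse 6, above the 18.1 that the other 10 b6/b6 mice reached and within the cast/cast range, and at 13.1 in mouse 12. Rpp21 was at 37.4 in mouse 6, below the other 10 b6/b6 mice (52.9 or more) and above the cast/cast maximum of 12.4, and at 78.3 in mouse 12. Tag hits of H2-K1 and H2-D1 were equal in 1 of 24 mice, and H2-K1 was the higher of the pair in 22 of 24. Summed over both loci, normalized counts ranged from 86.7 to 669 (median 129) in b6/b6 and from 41.9 to 227 (median 61.3) in cast/cast mice. This sum does not depend on how the shared tag was divided, provided that each tag was counted once at 1 of the 2 loci, which is not known. Without mice 6 and 12 the b6/b6 sums ended at 169.

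**Figure D2:**
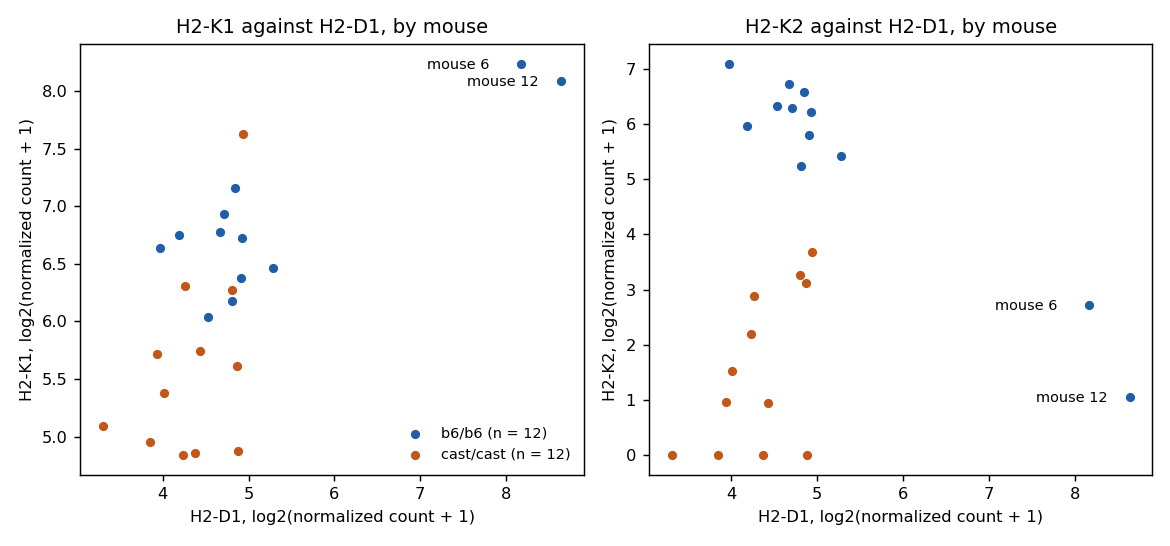
H2-K1 (left) and H2-K2 (right) against H2-D1 in each mouse, all as log2(normalized count + 1), coloured by genotype (12 mice each). b6/b6 mice 6 and 12 lie alone at the right of both panels, at 287 and 398 normalized counts of H2-D1, high for H2-K1 and among the cast/cast mice for H2-K2.

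H2-Q1 (NM_010390; Chr 17: 35320558 to 35325099), a nonclassical Q region heavy chain and the most abundant heavy chain tag, fell to 0.577 of its b6/b6 mean. Normalized counts ranged from 411 to 1278 with a median of 578 in b6/b6 mice, and from 137 to 700.3 with a median of 392 in cast/cast mice. The groups overlapped, with 8 of 12 cast/cast mice below every b6/b6 mouse and 5 of 12 b6/b6 mice above every cast/cast mouse. Means were 678 ± 242 (SD, n = 12) and 391 ± 129 (SD, n = 12), and the log2 fold change was -0.80 (SE 0.20, limma P = 0.000451, adjusted P = 0.0752). H2-Q1 was thus called by the unadjusted threshold but not after adjustment over all genes. Mice 6 and 12, at 572 and 462, were unremarkable here, and without them the log2 fold change was -0.87 (SE 0.21).

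H2-Q4 (NM_001143689; Chr 17: 35379617 to 35384674), another Q region heavy chain, was the one member whose genotypes did not overlap, as was the case for 0.336% of all genes and 10.4% of those on Chr 17 from 4 to 45 Mb. Normalized counts ranged from 12.5 to 52.7 with a median of 22.6 in b6/b6 mice, and from 0 to 5.46 with a median of 1.06 in cast/cast mice. Every b6/b6 mouse was above every cast/cast mouse. No H2-Q4 tag was counted in 5 of 12 cast/cast libraries, and 16 tags in all 12 against 333 in b6/b6. The means of 26.9 ± 12.4 (SD, n = 12) and 1.28 ± 1.59 (SD, n = 12) differed 20.9-fold, with a log2 fold change of -3.76 (SE 0.33, limma P = 5.79e-12, adjusted P = 3.11e-09) that was -3.81 (SE 0.35) without mice 6 and 12. At these depths, a cast/cast level near zero is not distinguished from none, and the CAST allele of this tag was not examined.

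H2-T3 (NM_008208; Chr 17: 36185571 to 36190151), which encodes the thymus leukemia antigen, a nonclassical heavy chain best known from intestinal epithelium, was the one member called higher in cast/cast mice, as were 0.471% of all genes. Normalized counts ranged from 3.68 to 26.7 with a median of 7.28 in b6/b6 mice, and from 6.61 to 31.2 with a median of 19.2 in cast/cast mice. The groups overlapped over most of their range, with 2 of 12 cast/cast mice above every b6/b6 mouse. Means were 9.85 ± 6.68 (SD, n = 12) and 18.2 ± 8.30 (SD, n = 12), a log2 fold change of 0.89 (SE 0.30, limma P = 0.00656, adjusted P = 0.435). Without mice 6 and 12 it was 0.79 (SE 0.31, limma P = 0.0182), no longer past the threshold, and the call was lost under 8 of 13 alternatives in all. H2-T10 (NM_010395 and NR_046286; Chr 17: 36115871 to 36121444), a nonclassical heavy chain known as a ligand of gamma delta T cells, ranged from 1.23 to 17.5 with a median of 5.15 in b6/b6 mice and from 2.54 to 17.6 with a median of 8.85 in cast/cast mice. Its log2 fold change of 0.64 (SE 0.30, limma P = 0.0464, adjusted P = 0.608) did not pass, the value without mice 6 and 12 was 0.63 (SE 0.32), and the groups overlapped almost throughout. Its tag hits never exceeded 18 in a library, so that the counting error of a single mouse is large.

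B2m (NM_009735; Chr 2: 122147687 to 122153082), the light chain shared by all class I heavy chains, did not differ detectably between genotypes but varied widely between mice. Normalized counts ranged from 578 to 4201 with a median of 1618 in b6/b6 mice, and from 62.2 to 4639 with a median of 2045 in cast/cast mice. The groups overlapped over almost the whole range. The mean was 1874 ± 1072 (SD, n = 12) in b6/b6 and 2023 ± 1485 (SD, n = 12) in cast/cast, a ratio of 1.08, whereas on the log2 scale cast/cast was lower by 0.38 with a wide interval (log2 fold change -0.38, SE 0.55, 95% CI -1.50 to 0.75, limma P = 0.498, adjusted P = 0.855). The mean and the log2 scale thus differed in sign. The highest cast/cast mouse had 74.5 times the count of the lowest, and the highest b6/b6 mouse 7.27 times. In 6 mice, 4 cast/cast and 2 b6/b6, B2m was below 600 normalized counts, and all 6 were among the 9 libraries with the lowest median correlation with the others (0.921 or less, against 0.941 or more in the other 15). Without these 9 libraries B2m ranged from 1034 to 4201 in 8 b6/b6 and from 1870 to 4639 in 7 cast/cast mice, and the log2 fold change was 0.47 (SE 0.28, limma P = 0.102). The part of library quality in the B2m values was not tested.

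**Figure D3:**
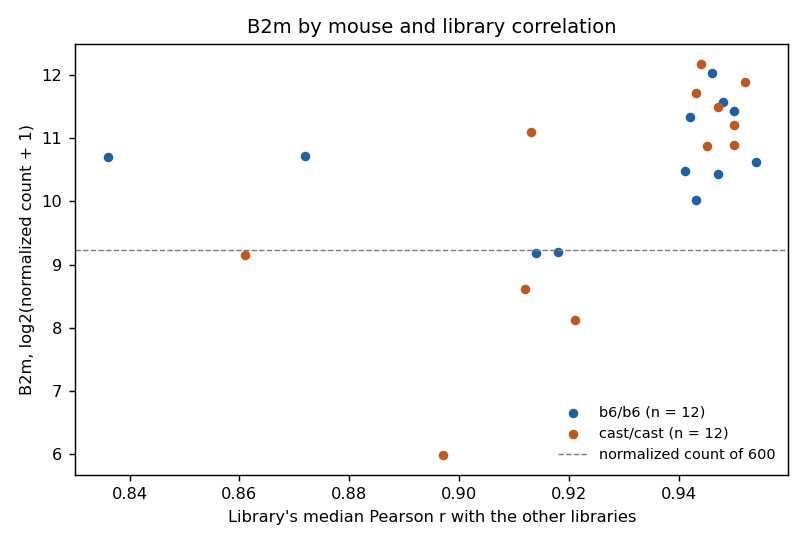
B2m, as log2(normalized count + 1), against each library's median Pearson correlation with the other libraries, coloured by genotype (12 mice each). The 6 mice under the dashed line at 600 normalized counts all have a median correlation of 0.921 or less, and the 15 libraries at 0.941 or more all lie above the line.

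**Figure D4:**
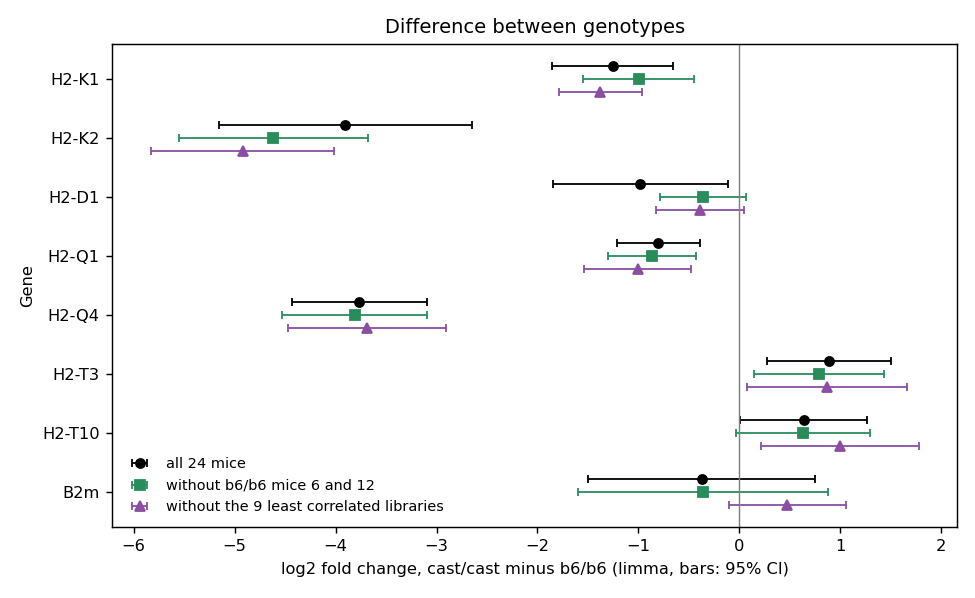
log2 fold change (cast/cast minus b6/b6) of each member from limma with its 95% confidence interval, for all 24 mice, without b6/b6 mice 6 and 12, and without the 9 libraries least correlated with the others. H2-K1, H2-K2, H2-Q1 and H2-Q4 lie left of 0 in all 3 sets, H2-D1 shrinks from -0.98 to -0.36 without mice 6 and 12, and B2m changes side without the 9 libraries.

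Summed over the 7 heavy chains, normalized counts in b6/b6 mice ranged from 619 to 1514 with a median of 989, and in cast/cast mice from 214 to 783 with a median of 523. The ratio of means was 0.505, and 11 of 12 cast/cast mice were below every b6/b6 mouse, a description to which H2-Q1 contributed most. Without mice 6 and 12 the ratio was 0.525. H2-Q1 made up 68.2% ± 12.8 (SD, n = 12) of the tags of these 7 heavy chains in b6/b6 and 77.2% ± 10.2 (SD, n = 12) in cast/cast mice, and 73.1% ± 6.13 (SD, n = 10) in b6/b6 mice without mice 6 and 12. The sum and these shares depend on whether the tag shared by H2-K1 and H2-D1 was counted, which is not known. B2m exceeded the heavy chain sum in 17 of 24 mice. B2m tags per heavy chain tag ranged from 0.561 to 5.34 (median 1.42) in b6/b6 mice. In cast/cast mice they ranged from 0.159 to 9.05 (median 4.64), so the groups overlapped widely. Without mice 6 and 12 the b6/b6 median was 1.57. The libraries with B2m below 600, 4 cast/cast and 2 b6/b6, are included in these values.

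Correlations of each heavy chain with B2m and with intake were examined within genotype. In b6/b6 mice, H2-T3 had the strongest relation with B2m (n = 12, Pearson r = 0.685, permutation P = 0.0145; Spearman rho = 0.713, permutation P = 0.0112), which did not pass after adjustment over 14 tests (adjusted P = 0.101 and 0.0678). It did pass without the 2 mice farthest from the median of B2m (r = 0.899, adjusted permutation P = 0.00784) and, by Pearson's r, without the 9 libraries (n = 8, r = 0.921, exact permutation P adjusted to 0.0146; rho = 0.905, adjusted to 0.0507), but not without mice 6 and 12 (r = 0.742, adjusted permutation P = 0.0687). The relation of H2-K1 with B2m was negative and depended on the mice included. It was r = -0.326 (rho = -0.538, adjusted permutation P = 0.696 for r) over 12 mice, r = -0.79 (rho = -0.794, adjusted permutation P = 0.0524 for r) without mice 6 and 12, and r = -0.971 (rho = -0.881, n = 8, exact permutation P adjusted to 0.00833 and 0.0507) without the 9 libraries. H2-D1 did not pass (r = 0.134, rho = 0.259, adjusted permutation P = 0.8 for r), nor did it without mice 6 and 12 (r = 0.433). In cast/cast mice B2m fell in separate ranges, 4 mice at 570 or less and 8 at 1870 or more, so no pooled coefficient is given. Within those 8, the coefficients of the 7 heavy chains ran from -0.455 (H2-K2) to 0.485 (H2-T3), with exact permutation P of 0.25 and 0.228 and adjusted P of at least 0.68 over 7 tests. None of the 16 correlations of a member with 10 d carbohydrate/protein intake passed after adjustment, and 3 had an unadjusted permutation P under 0.05. These were in b6/b6 mice, H2-D1 at r = -0.643, H2-K2 at 0.627 and H2-K1 at -0.621 (n = 12, permutation P = 0.0325, 0.0365 and 0.0352, adjusted P = 0.195 each), and without the 2 mice farthest from the median intake they were -0.26, 0.0494 and -0.423. These 3 coefficients rested on mice 6 and 12, without which they were -0.0704, -0.191 and -0.283.

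The genes next to the heavy chains on Chr 17 moved in both directions. AA388235, between H2-K2 and H2-K1, fell from a mean of 54.9 ± 16.7 to 0.157 ± 0.546 normalized counts (SD, n = 12 each), with 2 tags in all 12 cast/cast libraries (log2 fold change -5.62, SE 0.22, adjusted P = 2.7e-16 by limma). Rpp21, beyond H2-T3 and encoding a subunit of ribonuclease P, fell from 127 to 5.70 (log2 fold change -4.32, SE 0.33). Called higher in cast/cast mice were Vps52, a subunit of a vesicle tethering complex on the far side of H2-K2 (log2 fold change 0.63, SE 0.17), Ring1, a Polycomb protein beyond H2-K1 (0.62, SE 0.15), and Cchcr1, beyond H2-Q4 (1.23, SE 0.38). Ddx39b, an RNA helicase before H2-D1 (-0.44, SE 0.28), and C920025E04Rik, before H2-T10 (0.21, SE 0.40), were not called. Without mice 6 and 12 the log2 fold change of Ring1 was 0.49 (SE 0.13) and it was no longer called, and the calls of the other 4 called neighbours held.

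Of the 13 genes listed for peptide supply and loading, 2 were called, both subunits of the immunoproteasome, beside 1.49% of all genes. Both were among the 5 list genes on Chr 17 between 4 and 45 Mb (Tap1, Tap2, Tapbp, Psmb8 and Psmb9), where 25.3% of all genes tested were called. Psmb8 ranged from 37.1 to 114 with a median of 58.1 in b6/b6 mice and from 2.83 to 15.1 with a median of 9.42 in cast/cast mice, the groups being separate (log2 fold change -2.83, SE 0.27, adjusted P = 1.61e-08 by limma). Psmb9 went the other way, ranging from 3.15 to 36.4 (median 11.3) in b6/b6 mice and from 10.2 to 44.1 (median 28.5) in the cast/cast group (log2 fold change 1.39, SE 0.31, adjusted P = 0.0268). The other 11 did not pass, including the transporter subunit Tap1 (log2 fold change -0.29, SE 0.31) and tapasin, Tapbp (0.23, SE 0.21). The median over the list was -0.07. Both calls held without mice 6 and 12, and 4 genes were called without the 9 libraries (Psmb8, Psmb9 and the chaperones Calr and Pdia3), 3 by DESeq2 (with Tapbpl, a tapasin relative, in addition) and 2 by edgeR. With the study number blocks, Psmb8 and Calr were called and Psmb9 was not.

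None of the 16 listed regulators of class I transcription was called, with Nlrc5, the class I transactivator, at a log2 fold change of 0.38 (SE 0.32). None of the 8 interferon receptor and signalling genes was called, and none of the 16 interferon-induced genes in the table, of 24 listed, with Ifi27l2a lowest in unadjusted limma P (log2 fold change 0.70, SE 0.29, P = 0.022, adjusted P = 0.571). The medians of these lists were 0.03, -0.16 and 0.14. By limma at an unadjusted P under 0.05 there was 1 gene in each of these 3 lists, and edgeR and DESeq2 called 0 of them. With the study number blocks, 1 regulator was called, Nfya, a subunit of the factor that binds the Y box. Of class I-like molecules outside the rule, 5 of 13 listed were in the table and none was called, nor was Kir3dl2, the 1 of 13 listed class I receptors there.

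**Figure D5:**
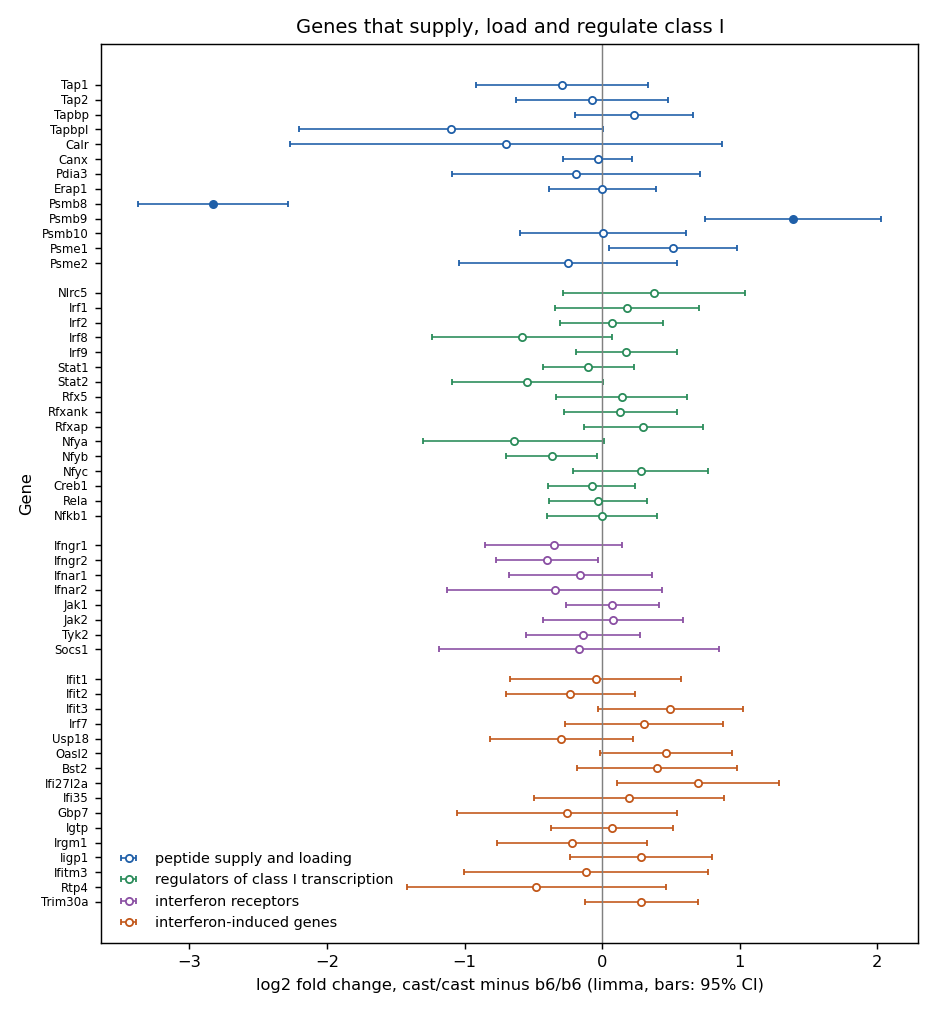
log2 fold change (cast/cast minus b6/b6) from limma with its 95% confidence interval for the listed genes of peptide supply and loading, regulators of class I transcription, interferon receptors and signalling, and interferon-induced genes, 12 mice per genotype. Filled points were called, and these are Psmb8 (-2.83) and Psmb9 (1.39).

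Markers of the cells that could carry class I transcripts were examined in the same libraries. In bulk tissue, fewer cells of a type and less RNA per cell cannot be told apart. Of 18 listed hypothalamic markers, 17 were in the table, Pmch, the precursor of melanin-concentrating hormone, with a mean of 8480 normalized counts in b6/b6 mice, and none was called. None of the 15 microglia, 12 endothelium, 5 macrophage and antigen presenting cell or 6 choroid plexus and pituitary markers in the table was called by limma, edgeR or DESeq2. Of all these, 2 microglia markers, Aif1 (log2 fold change 0.56, SE 0.26) and Tmem119 (-0.78, SE 0.33), had an unadjusted limma P under 0.05. Aif1 lies on Chr 17 (35170992 to 35176001), inside the segment that differs between the genotypes. The limit on tags of CAST alleles therefore holds for Aif1 and for the microglia sum. Without the 9 libraries 1 microglia marker, C1qa, was called. The summed microglia markers ranged from 6641 to 9551 normalized counts in b6/b6 and from 5504 to 10883 in cast/cast mice, and the endothelium markers from 1821 to 2898 and from 1888 to 3061. Of 11 markers of T and NK cells, Lck alone was in the table, and the others were not analysed here.

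Genes outside the members were ranked by how closely their variation within genotype followed that of the summed heavy chains and of B2m. The members were left out of this ranking, which therefore cannot show whether class I genes vary together. Over 24 mice, after removal of the genotype means, the 5 of 11990 genes most like the summed heavy chains were Tbx3 (Pearson r = 0.805), Lman2l (0.704), Frzb (0.699), Hmcn2 (0.698) and Itpr1 (0.695). Those most like B2m were Med7 (0.945), Med6 (0.941), Camkmt (0.930), Ube2t (0.924) and Ndfip1 (0.922). Without mice 6 and 12 the coefficients of these 10 genes ran from 0.719 to 0.801 for the heavy chain sum and from 0.927 to 0.949 for B2m. These coefficients are a description over libraries of unequal correlation with each other, and what underlies them was not tested.

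The upstream sequences of H2-K1, H2-D1, H2-Q4 and B2m are shown because class I promoters are known for shared elements, and the differences of these 4 members between genotypes were of unlike size. RefSeq promoters (GRCm38.p6, C57BL/6J) were given for 5 of 8 members, and the 250 bases before each start were searched on both strands for the kappa B element of class I promoters, the interferon response element, the Y box (CCAAT) and the X2 box (TGACG). Capitals mark the matches in the windows that hold them:
H2-K1 (chr17:34000356-34000461, minus strand): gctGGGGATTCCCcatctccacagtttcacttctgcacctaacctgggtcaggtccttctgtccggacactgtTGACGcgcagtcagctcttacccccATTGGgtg
H2-D1 (chr17:35262920-35263048, plus strand): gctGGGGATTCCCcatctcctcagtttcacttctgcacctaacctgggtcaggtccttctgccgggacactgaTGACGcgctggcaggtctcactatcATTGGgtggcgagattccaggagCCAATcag
H2-Q4 (chr17:35379535-35379569, plus strand): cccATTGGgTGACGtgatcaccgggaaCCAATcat
B2m (chr2:122147545-122147641, plus strand): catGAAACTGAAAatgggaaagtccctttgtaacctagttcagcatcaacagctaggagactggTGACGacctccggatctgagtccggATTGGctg
The windows of H2-K1 and H2-D1 were identical at 95 of 106 bases (89.6%), and both held the kappa B element, found in 0.0852% of 32851 promoters. B2m held the exact letters searched for the interferon response element (2.98% of promoters), and all 4 held the X2 box (17.8%) and the Y box (33.8%). None of these letter strings was found in the 250 bases before H2-T3. Other forms of the interferon response element were not searched for. The lack of a match in H2-K1, H2-D1, H2-Q4 and H2-T3 therefore does not show that these promoters lack the element. A match is a description of the reference letters and not of binding, and the CAST/EiJ promoters were not examined.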

How the data were processed

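Hypothalamus RNA of 24 mice (12 per genotype) was profiled by SAGE-Seq. The authors mapped 27-base tags with a modified SOLiD SAGE Analysis Software against RefSeq mRNA and GRCm38/mm10, and deposited a signal per gene, the tag hits divided by a DESeq size factor. The deposited ratio or fold, log2 fold and p-value columns of the authors' own comparison were not used. Whole tag hits were recovered for 100% of values (7754202 to 13082873 per library).

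Values were tested on log2(normalized count + 1) over all 13998 genes with limma 3.58.1 (R 4.3.3; trended eBayes, no covariates), with Benjamini-Hochberg adjustment. edgeR 4.0.16 and DESeq2 1.42.0 were run on the recovered counts as alternatives, and all were tested on simulated data. Correlations used 100000 permutations, or all of them up to 8 mice, two-sided. The text names all members, called genes of the lists and marker examples, the tested genes next to members, and the 5 genes most like the heavy chain sum and B2m. Genes of the lists that were not called were named after their values were seen. Members and lists were chosen with earlier results of these data known. Tag sequences came from GENCODE vM21 and promoters from RefSeq. Library correlations used 11450 genes off Chr 17 with a mean of at least 20. Each library was 1 mouse, and no pair of libraries agreed within sampling noise (lowest chi-square per degree of freedom 15.4).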

Additional observations from a re-analysis of the deposited data

How the results depend on the processing

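The number of members called was 5 and stayed within 1.5 times that number except as follows. It was 3 with a minimum mean of 20 (H2-Q4, H2-T3 and H2-T10 are then not tested), 3 with an adjusted P of at most 0.05, 2 with blocks of study numbers as a factor (7 blocks) and 2 in mice with colony numbers from 25000 to 26000 (3 b6/b6 and 9 cast/cast), where H2-K2 and H2-Q4 were called. H2-K2 and H2-Q4 were called under every alternative that tested them, with log2 fold changes from -4.92 to -2.77 and from -4.36 to -2.29. H2-K1 and H2-Q1 lost the call with the study number blocks (-0.92 and -0.64) and in the colony subset (-0.89 and -0.72), H2-Q1 also after adjustment. H2-T3 lost it under 8 of 13 alternatives, with log2 fold changes from 0.30 to 0.93 over all 13. H2-D1 was called with edgeR, DESeq2 and the study number as a covariate. H2-T10 reversed to -0.0794 with the study number blocks. B2m reversed to 0.10 with edgeR, 0.11 with DESeq2 and 0.47 without the 9 libraries, and was -1.90 (limma P = 0.00546) with the study number blocks, where its ratio of means, 1.08, kept it uncalled. The cause of these shifts was not tested. Rescaling the libraries moved the median log2 fold change of all genes from -0.02 to -0.11.

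Of 14 correlations with B2m, 1 passed after adjustment (H2-T10 in cast/cast, whose mice fall in separate ranges), 4 with rescaled libraries, 0 with Spearman coefficients (where 4 Pearson coefficients had an unadjusted permutation P under 0.05) and 2 without the 9 libraries (H2-K1 and H2-T3 in b6/b6). The members that share a tag rose from 3 to 7 when every NlaIII site was counted. The sets without mice 6 and 12 or without the 9 libraries were chosen after seeing the data. No paired analysis was made because the labels give no pairing of b6/b6 with cast/cast mice. Depth limits H2-T10, H2-T3 and the cast/cast values of H2-K2 and H2-Q4, which rest on few tags per library.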
